A study of Mus musculus with 6 samples.

Results

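Siglecs and the other inhibitory receptors of myeloid cells were followed in mouse macrophages that had or had not met yeast glucan particles. The set held 10 genes of 20283 with a named probe on the array: Siglec1, Siglece, Cd33, Cd22, Pirb, Lilrb4a, Sirpa, Cd300a, Cd300lf and Pilra. A probe was counted to a gene when its RefSeq accession belonged to that gene, which gave 16 probes, each with 1 spot per array. All 16 probes passed the filter on dim probes, so every gene was measured.

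The cells were bone-marrow-derived macrophages of C57BL/6 mice aged 6 to 8 weeks that the labels call polarized M2 cells, the state known as alternative activation, with the polarizing agent not given in the sources used here. The control group, medium, was kept for 6 h in complete DMEM, and the WGP group for 6 h in complete DMEM with WGP, whole glucan particles, which are cell wall particles of yeast made mostly of beta-glucan. RNA labelled with the dye Cy3 was hybridised to 1-colour Agilent arrays, and 3 files were deposited per group. Both groups thus shared the strain, the polarization and the culture medium, and they differed in the particles.

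The files labelled replicate 3 repeat other hybridizations. At 0 of 44397 spots did their unprocessed signals differ from replicate 1 in the same group. Replicates 1 and 2 of medium differed at 43490 spots, and those of WGP at 42356 spots. All values below therefore rest on replicates 1 and 2, n = 2 arrays per group. The labels name no separate cultures or animals behind the replicates. What the p-values measure is the spread between these samples alone, which may be technical.

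Each level is log2 of a probe's processed signal over the 75th percentile of its array, so that 0 stands for the 75th percentile itself. A change is WGP minus medium on this scale, and a gene rose or fell where limma's adjusted p lay under 0.05. On the 4 arrays a share of 45.0% to 50.6% of probes stood well above background, and the 75th percentile of the processed signal was 86.1 and 68.7 in medium against 59.2 and 55.9 with WGP. Of 10947 genes tested, 40.7% changed, 23.5% rising and 17.2% falling, with a median change of 0.034. The changes of 7 spiked-in control RNAs ran from -0.16 to 0.19 on the same scale. Replicates 1 and 2 lay on slides of their own, each slide carrying 1 medium and 1 WGP array at positions 1 and 3, so that position and treatment cannot be told apart. Precision is limited by the number of arrays.

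Inhibitory receptors of this kind sit at the surface of macrophages, granulocytes and lymphocytes and dampen signals from activating receptors. Most carry short tyrosine motifs in their tails (immunoreceptor tyrosine-based inhibitory motifs, ITIMs). Kinases of the SRC family phosphorylate these motifs, which then bind the phosphatases SHP-1 and SHP-2, or SHIP-1, and these reverse the phosphorylation steps that activating receptors start. Siglecs recognise sialic acids on glycoproteins and glycolipids, PIR-B binds MHC class I, SIRP-alpha binds CD47, and receptors of the CD300 family bind lipids of dying cells. Many have a close relative with a short tail that signals through the adaptors DAP12 or FcR-gamma instead, so that the families are called paired receptors.

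The promoters of the genes that changed are shown to set the opposite responses of the CD300 genes, and the smaller one of Pirb, beside their regulatory sequence. RefSeq's promoter table for GRCm38.p6 held windows for 7 of the 10 genes, without Siglec1, Lilrb4a and Sirpa. Each sequence gives the 250 bases before the annotated start, 5′ to 3′ on the strand of the gene. Capitals mark any match, on both strands, to a PU box (GAGGAA, the core bound by PU.1, the main transcription factor of myeloid cells), NF-kappaB, AP-1 (TGANTCA), C/EBP (TTNNGNAA), STAT (TTCNNNGAA) or the interferon response element. Neighbouring matches can overlap and then form 1 run of capitals.
Cd300lf (chr11:115133993-115134242, minus strand): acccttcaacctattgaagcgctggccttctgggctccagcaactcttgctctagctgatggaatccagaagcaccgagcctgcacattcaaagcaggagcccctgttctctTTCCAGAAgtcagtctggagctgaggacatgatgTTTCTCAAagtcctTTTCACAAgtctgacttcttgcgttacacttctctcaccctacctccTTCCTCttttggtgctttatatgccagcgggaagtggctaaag
Cd300a (chr11:114889791-114890040, plus strand): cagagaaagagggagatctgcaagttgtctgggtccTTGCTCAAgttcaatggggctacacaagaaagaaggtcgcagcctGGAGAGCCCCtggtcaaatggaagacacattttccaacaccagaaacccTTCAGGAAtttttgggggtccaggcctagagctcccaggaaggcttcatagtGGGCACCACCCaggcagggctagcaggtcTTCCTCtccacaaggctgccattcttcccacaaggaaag
Pirb (chr7:3720383-3720632, minus strand): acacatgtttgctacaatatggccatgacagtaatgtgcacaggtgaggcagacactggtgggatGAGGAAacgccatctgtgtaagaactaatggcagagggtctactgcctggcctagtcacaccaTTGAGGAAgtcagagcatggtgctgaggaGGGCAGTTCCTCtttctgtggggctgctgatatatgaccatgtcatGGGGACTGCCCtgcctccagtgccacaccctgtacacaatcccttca

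A PU box lay 43 bases before the start of Cd300lf and 39 bases before that of Cd300a, and Pirb had 3, at 185, 120 and 87 bases. Of all 32851 promoter windows of this length in the table, 23.25% held a PU box. The NF-kappaB letters matched 3 times each in the windows of Cd300a (169, 68 and 67 bases) and Pirb (93, 47 and 46 bases). In each, the last 2 matches overlap and form 1 run of capitals. No match was found in the window of Cd300lf, and 45.8% of all windows held at least 1. C/EBP letters matched 3 times in Cd300lf, 2 times in Cd300a and 1 time in Pirb (36.85% of all windows). The AP-1 and STAT letters were in none of the 7 windows, and the interferon response element was in that of Pilra alone (6.749%, 7.02% and 2.977% of all windows). These are letter matches in a short window and say nothing about binding in these cells.

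Of the 10 receptors, 3 rose with WGP (Cd300lf, Lilrb4a and Pirb), 2 fell (Siglec1 and Cd300a) and 5 did not pass the test. A share of 5 in 10 is near the 40.7% of all genes tested that changed, and the median change of the 10 was 0.022 against 0.034 over all genes. For 8 of the 10 the groups did not overlap, as for 75% of all genes tested. Among the 16 probes, 8 changed, against 34.3% of all 18442 probes kept. The largest changes were the 3.38-fold rise of Cd300lf, the 2.90-fold fall of Siglec1 and the 2.47-fold rise of Lilrb4a. In whole-culture RNA a change can come from fewer cells that express a gene or from less RNA per cell, and these cannot be told apart here.

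**Figure D1:**
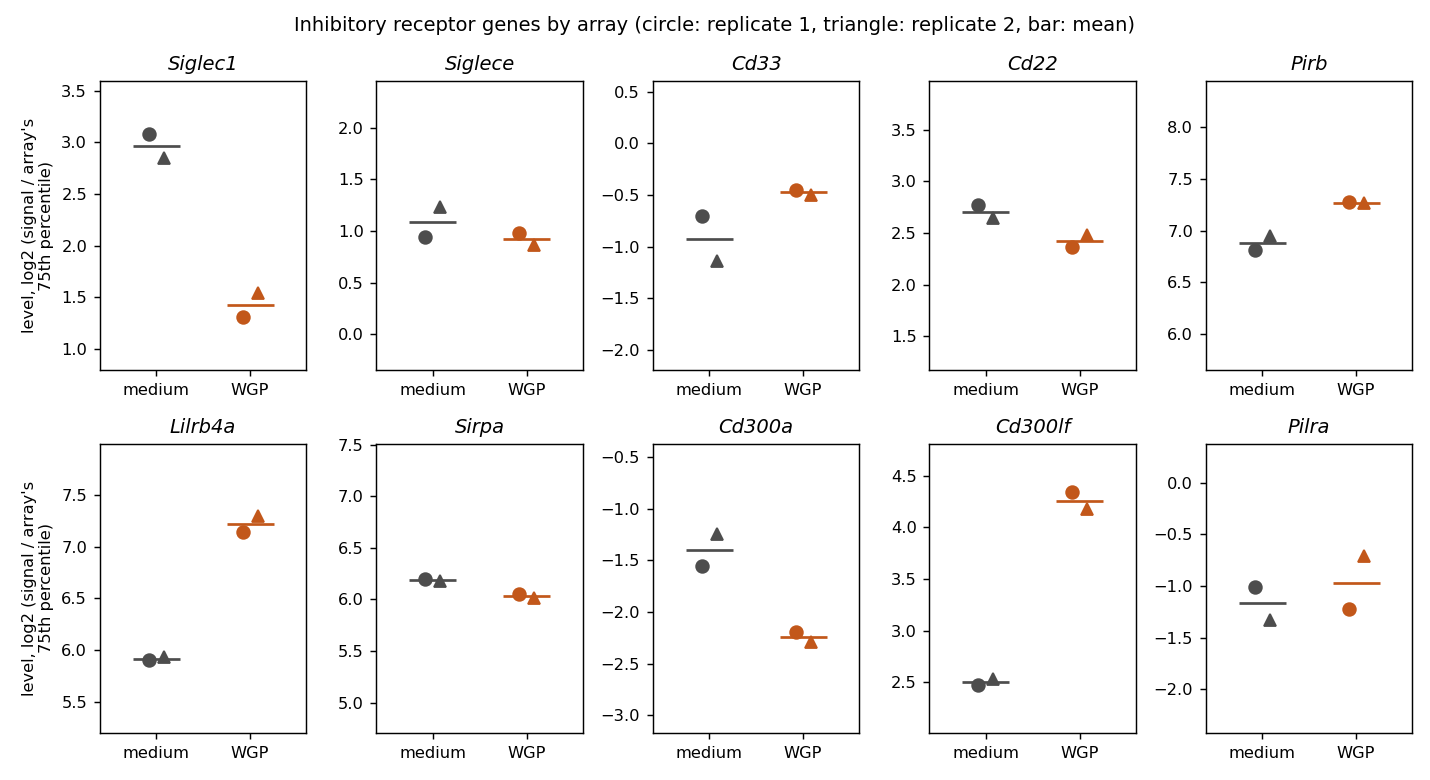
Level of each receptor gene on the 4 arrays, as log2 of the processed signal over the array's 75th percentile; circles are replicate 1, triangles replicate 2 and bars the group mean, and every panel spans the same range of log2 units. Cd300lf and Lilrb4a sit higher on both WGP arrays and Siglec1 and Cd300a lower, while the groups overlap for Siglece and Pilra.

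Siglec1, also called sialoadhesin or CD169, is an adhesion receptor of macrophages that binds sialic acid on other cells and on pathogens and, unlike most of its family, has no inhibitory motif. It read 3.08 and 2.85 in medium against 1.31 and 1.54 with WGP. Both WGP arrays thus lay far below both medium arrays. The change was -1.53 ± 0.15 (SE, n = 2 per group, adjusted p = 0.00439), a fall that 3.04% of all tested genes matched or exceeded. A second probe of Siglec1 read 2.59 and 2.51 in medium against 1.28 and 1.08 with WGP, a change of -1.37 ± 0.12 (SE, adjusted p = 0.00594 over 18442 probes). The fall was -1.77 on slide 1 and -1.30 on slide 2.

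Siglece, the main ITIM-bearing Siglec of mouse neutrophils and macrophages, showed no difference beyond the spread. Its levels of 0.95 and 1.24 in medium and 0.98 and 0.87 with WGP overlapped between the groups. The change was -0.17 ± 0.14 (SE, adjusted p = 0.393), with opposite signs on the slides (0.036 and -0.37).

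Cd33, a Siglec of myeloid cells, lay at -0.70 and -1.14 in medium and at -0.45 and -0.50 with WGP. The WGP arrays were the higher ones, but the medium arrays lay about as far from each other as the groups did. Its change of 0.45 ± 0.18 (SE) did not pass the test (adjusted p = 0.116). It passed without medium replicate 1 (0.67, adjusted p = 0.0386).

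Cd22, best known as a brake on the B cell receptor, was well above background on all 4 arrays. It read 2.77 and 2.64 in medium against 2.37 and 2.48 with WGP. The groups did not overlap, and the change of -0.28 ± 0.11 (SE) missed the threshold (adjusted p = 0.108). It passed with quantile normalization (-0.43, adjusted p = 0.0382).

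B cell markers are given beside Cd22. Of the 10 B cell markers, 3 were well above background on each medium array and 2 and 1 on the WGP arrays, and their summed signal, in units of the 75th percentile, was 1.28 to 1.48 in medium and 0.666 to 0.793 with WGP. Of the 3 tested, Cd79a and Cd79b, the signalling chains of the B cell receptor, fell (2.04-fold and at least 5.02-fold, adjusted p = 0.0243 and 0.00903). The complement receptor gene Cr2 did not pass, and the call of Cd79a was lost without either WGP replicate. Cd79b was well above background on neither WGP array and Cd79a on 1 of 2. Both thus passed the filter through medium alone, which favours a fall, so their direction adds no support. Among all genes tested, 17.2% fell. With normexp, an alternative background correction, the call of Cd79a was lost under either scaling. The defining marker Ms4a1 did not stand above background on any array. The part of B cells in the level of Cd22 was not tested.

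Lilrb4a encodes gp49B, an ITIM receptor of myeloid and mast cells that binds an integrin and fibronectin. It read 5.90 and 5.93 in medium and 7.15 and 7.30 with WGP. Replicates of a group agreed closely (SD 0.022 in medium and 0.10 with WGP), and the groups were well apart. Its rise was 1.31 ± 0.11 (SE, adjusted p = 0.00328), and 5.15% of all tested genes rose as much. The other probe of Lilrb4a went from 3.11 and 3.14 to 4.32 and 4.38, a rise of 1.22 ± 0.10 (SE, adjusted p = 0.00523).

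Pirb, the paired immunoglobulin-like receptor that binds MHC class I, changed little. Its processed signal read 9710 and 8490 in medium against 9200 and 8590 with WGP, overlapping ranges, and it became 6.82 and 6.95 against 7.28 and 7.26 once each array was scaled. The rise of 0.39 ± 0.10 (SE) passed narrowly (adjusted p = 0.0448). The call was lost when any array was left out (adjusted p = 0.114 without medium replicate 1, 0.0702 without medium replicate 2, 0.179 without WGP replicate 1 and 0.166 without WGP replicate 2), and with the slide as a block (adjusted p = 0.0722). It was also lost with quantile normalization, normexp scaled to the 75th percentile, and no filter on dim probes (adjusted p = 0.0958, 0.118 and 0.197). Adjusted over all 18442 probes, its p was 0.059.

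Sirpa encodes the receptor for CD47, through which macrophages are kept from taking up cells that display CD47. Its levels were 6.20 and 6.17 in medium and 6.05 and 6.01 with WGP. The groups did not overlap, yet the change of -0.16 ± 0.093 (SE) did not pass the test (adjusted p = 0.241), and it was 0.0056 with median scaling. With normexp background correction and 75th percentile scaling it was -0.31 and passed (adjusted p = 0.0277).

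Cd300lf, a receptor for phospholipids and ceramide that is also the entry receptor of mouse norovirus, had 3 probes. The brightest went from 2.48 and 2.53 in medium to 4.34 and 4.18 with WGP. All 3 probes were higher on both WGP arrays. The brightest rose by 1.76 ± 0.11 (SE, adjusted p = 0.00214), and 339 of the 10947 genes tested rose as much. A further probe, from 0.056 and -0.34 to 1.99 and 1.95, rose 4.33-fold (adjusted p = 0.00509 over all probes). The remaining probe was not well above background on either medium array and was at least 8.01-fold higher with WGP (adjusted p = 0.00383). This bound takes, on each medium array, the probe's own level or the dimmest level that counts as well above background, whichever is higher. This probe passed the filter through the WGP arrays alone, so its direction adds no support. The probes well above background in medium differed in the size of the rise and not in its direction.

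Cd300a, which binds phosphatidylserine and phosphatidylethanolamine on dying cells and carries ITIMs, went the other way. It was dim, at -1.56 and -1.25 in medium and -2.20 and -2.29 with WGP, and well above background on all 4 arrays. The WGP arrays were the lower ones on both slides (-0.64 and -1.04). Its fall of 0.84 on the log2 scale (SE 0.14, adjusted p = 0.0159) corresponded to 1.79-fold, and 9.95% of all tested genes fell as much. It no longer passed when WGP replicate 1 or WGP replicate 2 was dropped (adjusted p = 0.0602 and 0.0725). Under normexp correction scaled to the 75th percentile the change was -0.12 (adjusted p = 0.341).

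Pilra, an ITIM receptor that binds sialylated O-linked sugars on proteins, did not pass the test with any of its 3 probes. Its brightest probe read -1.01 and -1.33 in medium and -1.22 and -0.71 with WGP, overlapping between groups and with opposite signs on the slides (-0.22 and 0.62). The change was 0.20 ± 0.23 (SE, adjusted p = 0.516), and -0.053 without WGP replicate 2. Its other probes, with changes of 0.099 and 0.74, did not pass either (adjusted p = 0.52 and 0.128). For the probe with the change of 0.74, 1 of 2 medium arrays was well above background.

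**Figure D2:**
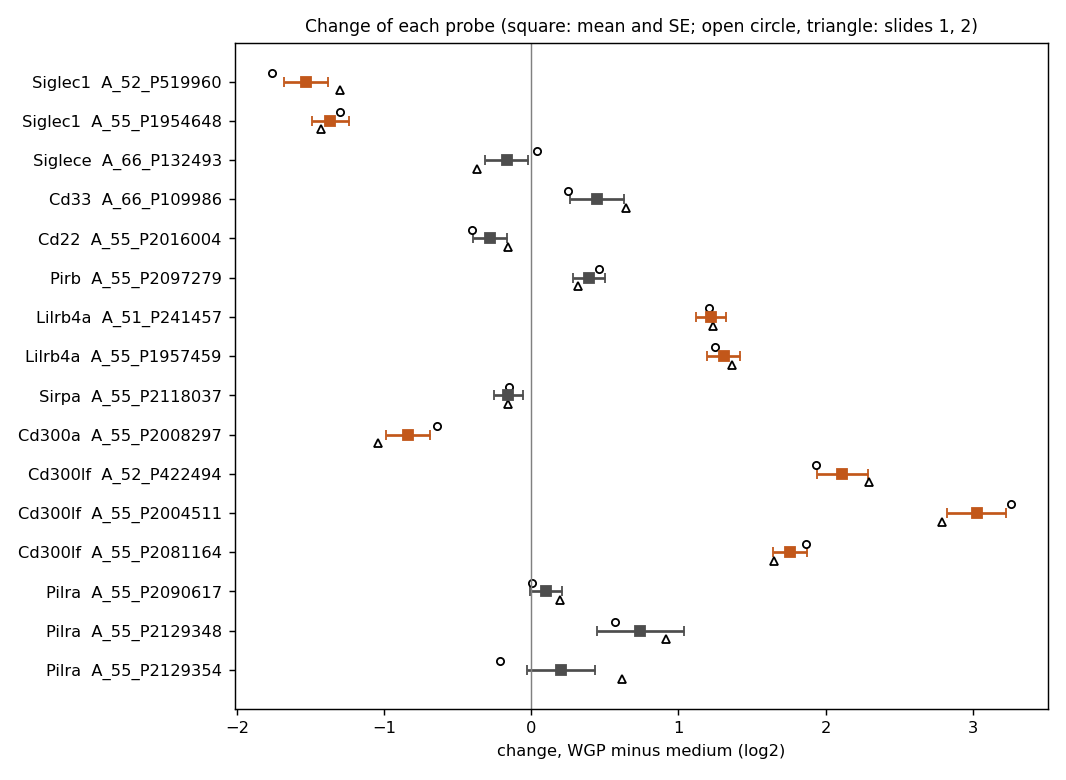
Change of each of the 16 probes (WGP minus medium, log2), with squares and bars for the mean and SE of the fit over 4 arrays, in colour where the adjusted p over all probes lay under 0.05, and open symbols for the difference on each slide. Both probes of Siglec1, both of Lilrb4a and all 3 of Cd300lf lie on 1 side of 0, and the 3 probes of Pilra do not pass. Of the 3 probes of Cd300lf, 1 was kept through the WGP arrays alone.

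Relatives of the same families went in different directions. Among the Siglec genes tested, 2 of 8 rose and 3 fell, where 23.5% of all genes tested rose and 17.2% fell. Siglecf, a receptor of eosinophils and alveolar macrophages, rose 2.60-fold (adjusted p = 0.00422), from -2.59 and -2.46 to -1.03 and -1.26. Siglech, a DAP12-coupled receptor known from plasmacytoid dendritic cells and microglia, rose 2.13-fold (adjusted p = 0.0245), a call lost without WGP replicate 1 or WGP replicate 2 (adjusted p up to 0.0872). Siglecg fell by 0.79 (SE 0.13) and Mag, the myelin-associated glycoprotein, by 0.47 (SE 0.10), both on the log2 scale (adjusted p = 0.014 and 0.0266). The call of Siglecg was lost without either WGP replicate (adjusted p up to 0.0695), and that of Mag without any 1 of the 4 arrays (up to 0.14) and with median scaling. With normexp background correction, under either scaling, Siglecg did not pass either. Siglec15 did not stand above background on any array.

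In the CD300 family, 2 of 7 genes tested rose and 1 fell, near the shares of all genes tested that rose (23.5%) and fell (17.2%). Cd300a and Cd300lf, the pair that moved apart, both lie on chromosome 11. In between lies Cd300lb, a DAP12-coupled activating relative, which rose 1.52-fold (adjusted p = 0.0169, up to 0.0925 with an array left out, lost in each of the 4 cases). Cd300ld, Cd300c2, Cd300ld4 and Cd300lg did not pass the test, with changes of -0.33, 0.15, -0.077 and -0.045, and Cd300e did not stand above background on any array. The difference between Cd300lf and these neighbours was not tested.

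Lilr4b, the activating partner of Lilrb4a on chromosome 10, rose 2.03-fold (adjusted p = 0.00642), from 3.35 and 3.56 to 4.49 and 4.46. The genes of this pair are near-identical in sequence, and whether a probe reads both transcripts was not tested. Pira2 and Lilra6, relatives of Pirb on chromosome 7 that lack inhibitory motifs, had changes of -0.28 ± 0.11 and 0.021 ± 0.097 (SE, adjusted p = 0.105 and 0.876). Of the SIRP genes, Sirpb1a, Sirpb1b and Sirpb1c, the activating relatives on chromosome 3, all fell. Sirpb1a went from -0.16 and -0.028 to -1.68 and -1.51, a 2.83-fold fall (adjusted p = 0.00315). Sirpb1b fell 2.39-fold (adjusted p = 0.0155), a call lost without medium replicate 1. Sirpb1c read 2.13-fold lower (adjusted p = 0.0206) and was not well above background on either WGP array. Its call was lost without WGP replicate 1 or WGP replicate 2. Normexp background correction, under either scaling, also ended the call of Sirpb1c. The SIRPB1 genes are also close in sequence to each other. Pilrb1 and Pilrb2, the activating relatives of Pilra, did not stand above background on any array.

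**Figure D3:**
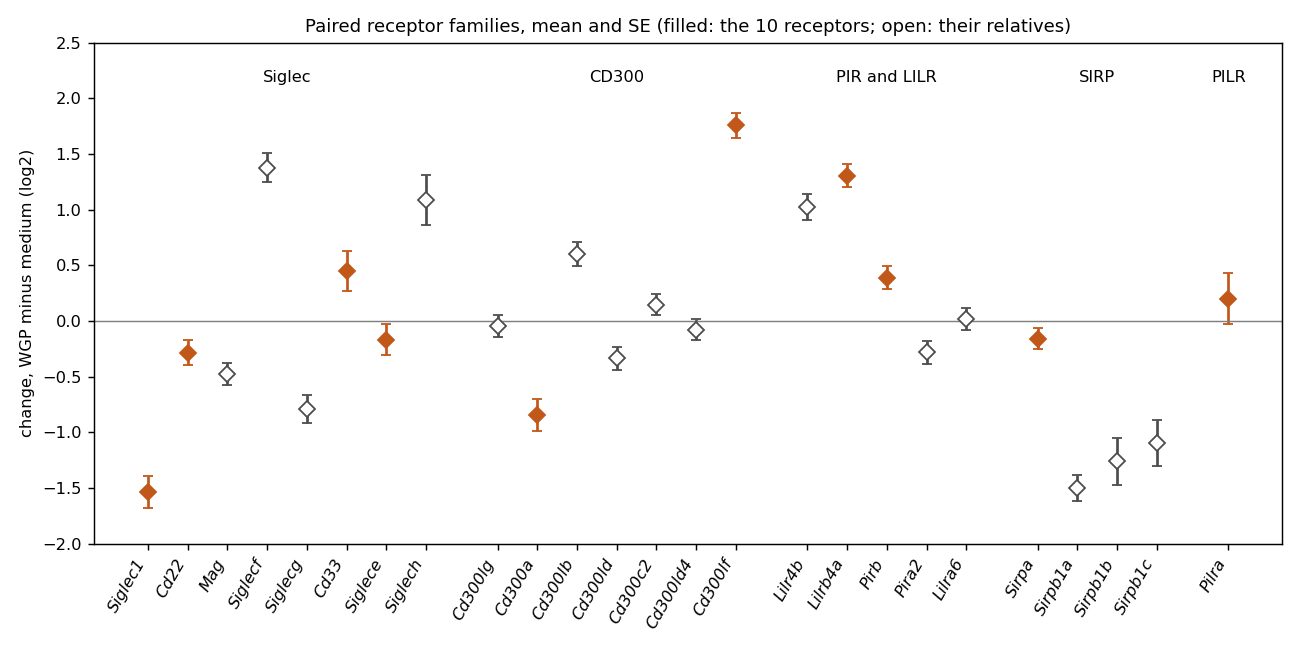
Change (WGP minus medium, log2; mean and SE of the fit, n = 2 arrays per group) of all tested genes of the Siglec, CD300, PIR and LILR, SIRP and PILR families, with filled symbols for the 10 receptors. Siglec1 and Cd300lf lie at opposite ends, Lilr4b lies beside Lilrb4a, and Sirpb1a, Sirpb1b and Sirpb1c lie below Sirpa.

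Of 17 genes tested from a list of other receptors taken as inhibitory, 9 fell and 3 rose, with a median change of -0.47. Among all genes tested, 17.2% fell and 23.5% rose. This list was drawn up with earlier results of these data known. Whether each receptor on it carries an inhibitory motif in its tail was not checked. Vsir, the inhibitory receptor VISTA, fell 4.62-fold (adjusted p = 0.00178), Clec4a1, a C-type lectin, 3.67-fold (adjusted p = 0.00491) and Cd72 2.92-fold (adjusted p = 0.00315). Fcgr2b, the inhibitory Fc receptor, and Lair1, the collagen receptor, fell by 0.83 and 0.77 on the log2 scale (adjusted p = 0.0153 and 0.0234). Fcgr2b did not pass without either WGP replicate, nor Lair1 without medium replicate 2 or either WGP replicate (up to 0.0724 and 0.0988). Cd5 read 4.25-fold higher (adjusted p = 0.00417), or 3.60-fold without medium replicate 1. It was not well above background on either medium array and passed the filter through the WGP arrays alone. Slamf7, a receptor of the SLAM family, rose 1.77-fold (adjusted p = 0.00776). The 9 falls were 5 with median scaling, 5 without medium replicate 2 and 3 without WGP replicate 1 or WGP replicate 2, equal there to the 3 rises; those of Vsir, Clec4a1 and Cd72 held in all 15 alternatives.

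Of 17 activating counterparts and adaptors tested, 5 rose and 3 fell, with a median of 0.042. The share that changed, 47.1%, was near the 40.7% of all genes tested. Neither adaptor on which the short-tailed receptors depend passed the test. Tyrobp, which encodes DAP12, read 7.77 and 7.74 in medium and 7.75 and 7.76 with WGP, a change of -0.0044 ± 0.092 (SE, adjusted p = 0.973). Fcer1g, the FcR-gamma chain, had a change of -0.32 ± 0.11 (SE, adjusted p = 0.0892). The large rises were in C-type lectins that signal through FcR-gamma, Clec4e (135-fold, adjusted p = 0.00122) and Clec4d (5.77-fold, adjusted p = 0.00127). Without WGP replicate 1 or WGP replicate 2, 3 rose and 2 fell, and without medium replicate 1, 4 rose and 2 fell.

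Of the enzymes that act at the inhibitory motif, Lyn and Ptpn6 fell, Ptpn11 rose and Inpp5d did not pass the test. Lyn, a SRC-family kinase that phosphorylates ITIMs, went from -0.43 and -0.23 in medium to -1.81 and -1.76 with WGP, a 2.74-fold fall (adjusted p = 0.00326). Ptpn6, the gene of the phosphatase SHP-1, went from 3.29 and 3.35 to 2.13 and 2.31, a 2.14-fold fall (adjusted p = 0.00513). Neither gene's groups overlapped, and both calls held in all 15 alternatives. Ptpn11, the gene of SHP-2, rose 1.55-fold (adjusted p = 0.0265), from 3.74 and 3.51 to 4.34 and 4.18. Dropping medium replicate 2, WGP replicate 1 or WGP replicate 2 ended this call (adjusted p up to 0.116). Inpp5d, which encodes SHIP-1, had a change of -0.51 ± 0.15 (SE) and did not pass the test (adjusted p = 0.0606); it passed without medium replicate 2.

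Of the 26 signalling genes tested, 7 rose and 4 fell (median -0.012, or 0.049 with genes dim in 1 group set at their bound). With 42.3% changed, the list lay near the 40.7% of all genes tested. Src rose 7.57-fold (adjusted p = 0.00681) and was well above background on 1 of 2 medium arrays. Socs3, a feedback inhibitor of cytokine receptors, rose 7.15-fold (adjusted p = 0.00466), and Vav1, an exchange factor downstream of SYK, 2.30-fold (adjusted p = 0.00329). Besides Lyn and Ptpn6, Dok2, an adaptor that restrains tyrosine kinase signals, fell 3.68-fold (adjusted p = 0.00191). These 7 rises were 3 without WGP replicate 1 or WGP replicate 2, and the 4 falls were 10 with normexp and 75th percentile scaling.

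Ligands of the 10 receptors, and Cd24a as a ligand of their relative Siglec-G, were measured in the same cells. Of 19 tested, 4 rose and 5 fell, with a median of 0.019. The 47.4% that changed was near the 40.7% of all genes tested. Cd47, the ligand of SIRP-alpha, read 4.68 and 4.65 in medium and 4.23 and 4.18 with WGP, with no overlap. Its fall of 0.46 on the log2 scale (SE 0.094, adjusted p = 0.0245) was lost without any 1 of the 4 arrays (adjusted p up to 0.129) and with median scaling. Cd24a, a sialylated surface protein bound by Siglec-G, rose 18.2-fold (adjusted p = 0.00122), from -2.81 and -2.68 to 1.40 and 1.48. Thbs1, which encodes the matrix protein thrombospondin 1, rose 4.82-fold (adjusted p = 0.028), or 7.81-fold without medium replicate 1 and 2.98-fold without medium replicate 2. It was well above background on 1 of 2 medium arrays, and the call was lost without WGP replicate 1 or WGP replicate 2, at up to 0.0914. Angptl2, a secreted ligand reported for PIR-B, was at least 2.03-fold higher (adjusted p = 0.00629). Selplg, the gene of the sialylated selectin ligand PSGL-1, fell 2.00-fold (adjusted p = 0.0112). Cd99l2 and Tlr4 fell by 0.54 and 0.51 on the log2 scale (adjusted p = 0.0302 and 0.0252), both lost without any 1 of the 4 arrays (up to 0.138 and 0.127) and with median scaling, and that of Cd99l2 also with the slide as a block (adjusted p = 0.0543). Ptprc, the gene of CD45, a ligand of CD22, had a change of -0.44 ± 0.13 (SE) and did not pass (adjusted p = 0.0557). The 5 falls were 3 with the slide as a block, 1 without any 1 of the 4 arrays and 1 with median scaling, and the 4 rises were 2 without WGP replicate 1 or WGP replicate 2.

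Genes that make, attach and remove sialic acid, the sugar that Siglecs and PILR-alpha recognise, also went both ways. With a median of -0.14, 5 of the 20 tested rose and 5 fell. Rises made up 23.5% and falls 17.2% of all genes tested. St3gal1, a sialyltransferase that caps O-linked sugars, rose 3.28-fold (adjusted p = 0.00214), from 3.11 and 3.12 to 4.75 and 4.91. St3gal5, which makes the ganglioside GM3, and Cmas, which activates sialic acid, rose 1.73-fold and 1.58-fold (adjusted p = 0.00956 and 0.0107). The call of St3gal5 was lost without WGP replicate 2 and that of Cmas without WGP replicate 1 or WGP replicate 2 (adjusted p up to 0.0547 and 0.0674). Cmah, the enzyme that turns N-acetyl- into N-glycolylneuraminic acid, the form that mouse CD22 prefers, was at least 4.82-fold lower (adjusted p = 0.0123). St6gal1, which makes the linkage that CD22 binds, fell 2.46-fold (adjusted p = 0.0126), with 1 of 2 WGP arrays well above background. It did not pass with normexp background correction under either scaling. The calls of Cmah and St6gal1 were lost without medium replicate 1 or medium replicate 2 (adjusted p up to 0.064 and 0.0604). St8sia4, a polysialyltransferase, fell 2.62-fold (adjusted p = 0.00329) and held in all 15 alternatives, as did St3gal1. Without medium replicate 1, medium replicate 2, WGP replicate 1 and WGP replicate 2, the rises numbered 4, 3, 2 and 1 and the falls 2, 1, 3 and 4.

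Siglec1 is widely used as a marker of the type I interferon response, so the genes of that response are given beside it. Of 17 tested, 9 rose and 0 fell by limma, with a median of 0.53, and 10 had an unadjusted p under 0.05 in either direction. Among all genes tested, 23.5% rose and 17.2% fell. Without WGP replicate 1 the rises numbered 7, and without WGP replicate 2 there were 8 rises and 1 fall. Ifit1 rose 5.05-fold (adjusted p = 0.00142), the chemokine gene Cxcl10 4.62-fold (adjusted p = 0.00134) and Isg15, a ubiquitin-like modifier, 3.79-fold (adjusted p = 0.00156). These 3 calls held in all 15 alternatives, as did the fall of Siglec1. The direction of Siglec1 was thus opposite to that of the 9 interferon genes that passed.

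**Figure D4:**
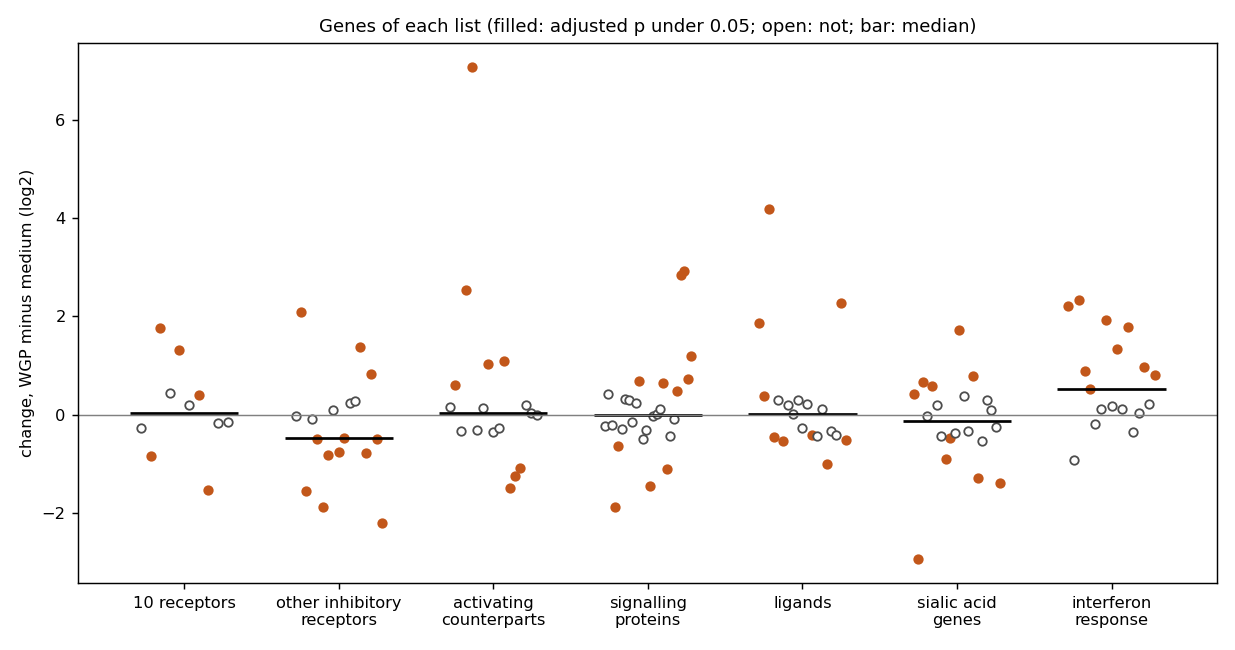
Change (WGP minus medium, log2) of every tested gene of the 10 receptors and of 6 lists of related genes, with filled points for an adjusted p under 0.05 and bars for the list medians. The medians of the 10 receptors, activating counterparts, signalling proteins and ligands lie near 0, that of other inhibitory receptors at -0.47 and that of the interferon response at 0.53.

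The labelled cell type was set against its markers. All 11 macrophage markers measured were well above background on every array. Csf1r, the receptor for the macrophage growth factor, read 10.1 and 9.99 in medium and 10.6 and 10.4 with WGP, and Adgre1 (F4/80) 6.48 and 6.32 against 6.32 and 6.41. Neither passed the test (adjusted p = 0.0553 and 0.808), and 3 of the 11 rose and 5 fell (2 and 2 without either WGP replicate). Over all genes tested, 23.5% rose and 17.2% fell. Of 12 markers of alternative activation 7 were tested. Clec10a, a galactose-binding lectin, fell 16.3-fold (adjusted p = 0.00127), and Tgm2, a transglutaminase gene, rose 13.2-fold (adjusted p = 0.00122). Egr2 also rose, Cd163 fell, and Mrc1, the mannose receptor gene, fell 1.55-fold (adjusted p = 0.0147, lost without WGP replicate 1 or WGP replicate 2, at up to 0.0761). Arg1, Retnla, Irf4, Ccl17 and Ccl22 did not stand above background on any array of medium or WGP. Chil3 and Il4ra did not pass the test. What these shifts contribute to the receptor values was not tested.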

How the data were processed

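The values used are intensities per spot in files deposited by the authors. The submitters' processing notes name Agilent Feature Extraction 10.7.3, and the processed signal is the spot intensity after background subtraction and detrending, not scaled between arrays, per the file headers. The log2 values of the authors' deposited matrix served as an alternative. Its probe-centred values correlated at 1.00 with those computed here over 39394 probes, and the baseline of its centring stays unknown. Flags for background, saturation (0 spots) and outliers were used as deposited by the authors.

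Control spots (1377) and outlier spots (118 to 183 per array) were left out, each array's 75th percentile was subtracted on the log2 scale, and 67.87% of 39429 probes were named through RefSeq accessions (GRCm38.p6). The array design is on mm9, so no coordinates are given except those of promoter windows, which are RefSeq's. A kept probe was well above background on every array of medium, of WGP or of both. Where only 1 group met this, the filter itself favoured the direction of the change. The brightest kept probe stood for a gene. Medium replicate 3, whose processed signal lay within 0.695% of the average of replicates 1 and 2, and WGP replicate 3, within 0.488% of 1.3 times WGP replicate 1, were left out. limma 3.58.1 in R 4.3.3 was fitted over all 10947 genes with Benjamini-Hochberg adjustment (2 residual and 2.22 prior degrees of freedom), and tested on simulated data. Per the file headers, replicates 1 and 2 lie on slides 1 and 2, WGP replicate 3 on slide 1 and medium replicate 3 on a slide 3, although its unprocessed signals equal those of medium replicate 1; deviations of same-numbered arrays from their group means correlated at 0.14.

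The receptors and gene lists were chosen with earlier results of these data known, and the families were grouped by symbol after their values were seen. Named genes were the 10 receptors, their direct partners, the 3 largest rises and falls of each list past the threshold, and a few markers; Lilr4b, Lilra6, Pira2, Siglecg, Mag, Siglec15, Fcgr2b, Lair1, Egr2, Cd163, Ccr7, Col3a1 and the other CD300, SIRP and PILR genes were named after their values were seen. So were Retnla, Irf4, Ccl17, Ccl22, Chil3 and Il4ra. No gene was named for likeness of pattern. Alternatives were other scalings, background corrections, filters, replicate sets, probe rules and the slide as a block.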

Additional observations from a re-analysis of the deposited data

How the results depend on the processing

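Of the 10 receptors, the rises of Cd300lf and Lilrb4a and the fall of Siglec1 passed the threshold in the same direction under all 15 alternatives, with changes of 1.39 to 2.30, 1.08 to 1.47 and -1.67 to -1.37. Cd300a passed in 10 of 15 and Pirb in 7, while Cd22 passed in 4, Cd33 and Sirpa in 3 each and Siglece and Pilra in 0. The count of changed receptors, 5, was 3 with no filter on dim probes, 8 with all 6 files as samples and 3 to 5 with 1 array left out. The count of changed genes, 4460, was 1541, 7437 and 2136 to 3226 in the same settings; counting all 6 files repeats the same hybridizations. The sign turned for Sirpa with median scaling (0.0056) and for Pilra without WGP replicate 2 (-0.053, within a range of -0.053 to 0.46 with 1 array left out), gene and probe alike; the cause was not tested. With the slide as a block (replicate block), 4 receptors and 4077 genes changed, and Pirb was the receptor lost. Median scaling moved the median change of all genes to 0.20 and the share of rises among changed genes from 57.78% to 72.97%. Among counts of the gene lists, 94 moved by over 1.5 times and 326 did not. Naming probes by a gene name column was not run, since the scanner files hold none. Depth on an array is signal over background: Cd300a and the dimmer probes of Pilra and Cd300lf lay nearest to it.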

Other observations

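Markers of other cell types were given no comparison of their own. In limma's test, 0 of 6 neutrophil markers and 0 of 5 T and NK cell markers changed, with 1 and 0 at an unadjusted p under 0.05. With the slide as a block, 3 of the neutrophil markers passed: Camp rose (0.63 on the log2 scale, adjusted p = 0.0281), and S100a9 (-0.90, adjusted p = 0.0194) and Prtn3 (-0.67, adjusted p = 0.0352) fell. These 3 were named after their values were seen. Among these, Csf3r and Elane (neutrophil) and Cd4 and Cd3e (T cell) did not pass. The summed neutrophil signal, in units of the 75th percentile, was 108 to 121 in medium and 106 to 111 with WGP. Most of it came from Csf3r, whose levels were 6.61 and 6.47 in medium and 6.41 and 6.51 with WGP. The sum thus says little about the dimmer neutrophil markers. The summed signal of T and NK cell markers was 39.8 to 41.6 in medium and 34.8 to 42.6 with WGP. Of 5 dendritic cell markers, Ccr7 and Siglech rose and Tcf4 fell; Ccr7 did not pass without medium replicate 2 or either WGP replicate (adjusted p up to 0.127), nor with the slide as a block (adjusted p = 0.055), and Siglech did not without either WGP replicate. Of the mast cell, basophil and eosinophil markers, Siglecf rose, Ccr3 did not pass, and the other 8 did not pass the filter. Col3a1 was the only one of 4 fibroblast markers tested that changed, and it fell. Its call was lost with normexp background correction under either scaling.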
